A study of Mus musculus with 68 samples.

Results

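The strain by butadiene interaction in lung microRNAs (miRNAs) asks, for each miRNA, whether exposure to 1,3-butadiene changed its level by a different ratio in CAST/EiJ than in C57BL/6J mice. It was computed as the log2 ratio of butadiene (BD) to clean air in CAST/EiJ minus the same log2 ratio in C57BL/6J, so that a positive value means a ratio that was higher in CAST/EiJ. The members were fixed by a rule, set with earlier results of these data known. They were all small RNA libraries except the one with title number 8, and all miRNA entries listed in each of them. No value under 10.5 counts was listed, so the listing depended on level. The rule gave 19 of the 20 small RNA libraries, out of 68 libraries of all assays. It gave 320 of 480 miRNA entries, which carry 296 distinct mature names.

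The groups were CAST/EiJ mice given BD (3 libraries), CAST/EiJ mice in clean air (7), C57BL/6J mice given BD (4) and C57BL/6J mice in clean air (5). All were wild-type males, and the tissue was lung, from which total RNA was taken. BD was given for 6 hours per day on weekdays over 2 weeks; no age or concentration stood in the labels. CAST/EiJ is an inbred strain derived from wild mice of the castaneus subspecies, and C57BL/6J is the strain of the mouse reference genome. BD is a gas used to make synthetic rubber and an inhaled carcinogen whose epoxide metabolites react with DNA. The labels did not say whether each library was a separate animal, so the p-values measure the spread between libraries.

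An miRNA is a short RNA that guides an Argonaute protein to messenger RNAs, mostly through pairing of its seed, bases 2 to 8 from the 5′ end. miRNAs of the same seed can bind the same sites and are counted as a family. A hairpin precursor can give a mature miRNA from its 5′ arm (5p) and its 3′ arm (3p), and hairpins that lie close together are often cut from 1 transcript. In lung, miR-150 and miR-142 come from leukocytes, miR-34b, miR-34c and miR-449 from multiciliated cells, miR-143 and miR-145 from smooth muscle, and miR-29 restrains the messages of collagens and other matrix proteins.

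The sequences of the miRNAs on which the results turn are given from RefSeq (GRCm38.p6, which held 379 of the 480 entries and 260 of the 320 tested), with the seed in capitals. The first set shares the miR-34 and miR-449 seed, the second set the miR-29 seed, and the third set the seed of miR-103 and miR-107; in the fit on the groups alone, the interaction ratio was negative for every tested miRNA of these 3 seeds.
miR-34a-5p: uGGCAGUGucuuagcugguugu
miR-34b-5p: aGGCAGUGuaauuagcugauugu
miR-449a-5p: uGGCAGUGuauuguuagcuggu
miR-449c-5p: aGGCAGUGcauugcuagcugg
miR-29a-3p: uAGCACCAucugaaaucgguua
miR-29b-3p: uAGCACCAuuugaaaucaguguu
miR-29c-3p: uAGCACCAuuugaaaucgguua
miR-103-3p: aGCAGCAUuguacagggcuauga
miR-107-3p: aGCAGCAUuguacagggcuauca
The next set shares the miR-125 seed and had positive ratios in that fit.
miR-125a-5p: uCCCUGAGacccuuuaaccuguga
miR-125b-5p: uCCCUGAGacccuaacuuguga
miR-351-5p: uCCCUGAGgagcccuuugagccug
The last set holds single miRNAs that are described one by one, among them both arms of the miR-142 hairpin, which RefSeq names miR-142a, and the 5p arms of miR-342 and miR-423.
miR-142-3p: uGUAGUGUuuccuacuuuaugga
miR-142-5p: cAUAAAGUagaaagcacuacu
miR-342-5p: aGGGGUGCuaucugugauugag
miR-423-5p: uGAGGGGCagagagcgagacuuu
miR-130b-5p: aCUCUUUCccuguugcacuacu
miR-24-3p: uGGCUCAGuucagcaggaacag
miR-200a-3p: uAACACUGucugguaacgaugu

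Small RNA totals were 2519778 to 3156828 counts in CAST/EiJ BD, 2672054 to 4184835 in CAST/EiJ clean air, 3146118 to 8474182 in C57BL/6J BD and 2066588 to 3415561 in C57BL/6J clean air. On a strain index over 22 miRNAs, set to 1 at the mean of clean-air CAST/EiJ and to 0 at the mean of clean-air C57BL/6J, the library with number 8, labelled CAST/EiJ BD, stood at 0.163, against 0.881 to 0.888 in the other 3 CAST/EiJ BD libraries. The C57BL/6J BD libraries stood at 0.158 to 0.388. In RNA-seq, over 984 genes, the library of that number stood at 0.15, against 0.828 to 1.00 in the other 5 CAST/EiJ BD libraries. Yet miR-34c, listed in none of the other libraries labelled CAST/EiJ and in every one labelled C57BL/6J, was not listed in number 8, so the listing followed the label where the levels did not. The small RNA libraries also fell on different sides of a split by title number. Numbers 1 to 10 held all 3 CAST/EiJ BD libraries, 2 clean-air CAST/EiJ libraries and 4 clean-air C57BL/6J libraries, while the higher numbers held all 4 C57BL/6J BD libraries, 5 clean-air CAST/EiJ libraries and 1 clean-air C57BL/6J library (replicate 1). The second principal component (19.9% of the variance) was below 0 in every library of the first side and above 0 in every library of the other; the labels do not say what the numbers stand for. Since BD in the 2 strains lay on opposite sides, the interaction and the side can be told apart only through the clean-air libraries, and a second fit had the side as a covariate. Of the 89 calls from the groups alone, 85 were not called in that fit, and the calls below are from the groups alone unless the covariate is named. A stricter fit used only CAST/EiJ libraries of numbers 1 to 10 and C57BL/6J libraries of higher numbers, in which C57BL/6J clean air was 1 library (replicate 1). In RNA-seq, the library of that number held 1620 CPM summed over 10 basal and squamous epithelium markers, against a median of 14.4 in its group. Libraries of the other groups also reached 2330 CPM (CAST/EiJ BD), 2170 (CAST/EiJ clean air) and 1150 (C57BL/6J BD). The part of this in either fit was not tested.

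**Figure D1:**
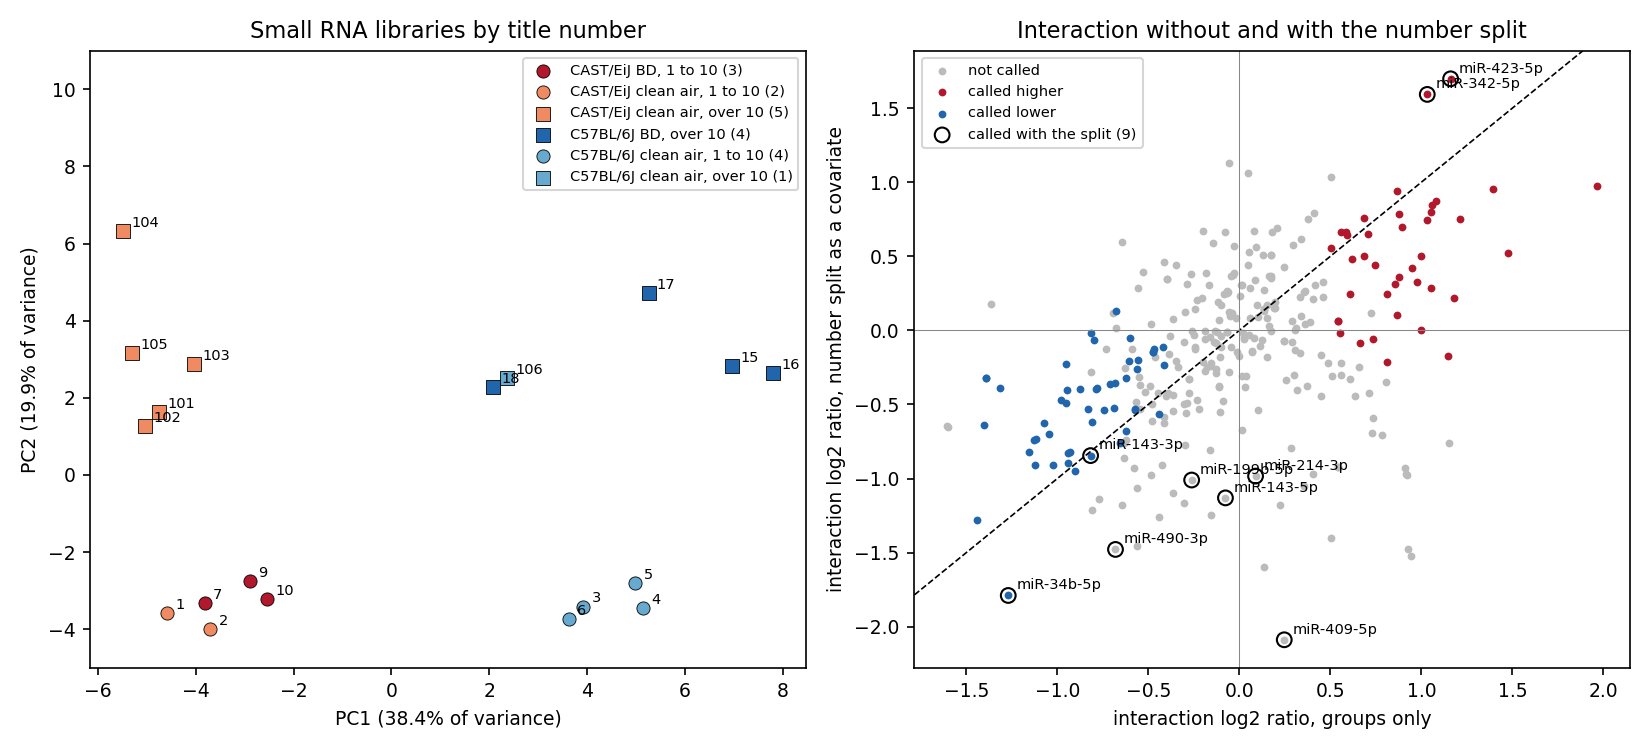
Left, the 19 small RNA libraries on the first 2 principal components of log2 CPM, with title numbers beside the points, the group as colour and the side of the number split as shape. Right, the interaction log2 ratio of each of 320 entries from the groups alone (x axis) and with the number split as a covariate (y axis); 9 entries were called with the split, and the dashed line marks equal values.

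To determine which miRNAs responded differently in the 2 strains, edgeR's quasi-likelihood test was run over all 320 entries, and an entry was called at a Benjamini-Hochberg adjusted p under 0.05. The interaction was called for 89 entries (27.8% of those tested), 40 higher (12.5%) and 49 lower (15.3%). These shares over all 320 entries are the background for the list counts below. BD against clean air was called for 9 entries in CAST/EiJ (2.81%) and for 61 higher and 40 lower entries in C57BL/6J (31.6%). Called ratios ran from -1.44 to 1.97 on the log2 scale, and 13 of the 40 higher and 13 of the 49 lower entries were at least 2-fold. With the number split as a covariate, 9 entries were called (2.81%), 4 of them among the 89; in the stricter within-side fit 1 was called (0.312%), miR-34b-5p. Over the 40 entries called higher the median ratio was 0.87 from the groups alone and 0.50 with the covariate, where 35 kept their sign; over the 49 called lower it was -0.81 and -0.49, and 48 kept theirs. With library number 8 under its label 89 entries were called, 80 of them shared.

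The responses behind the called ratios are given as a description, since the calls were made on the difference of these same responses, which by itself favours opposite signs and separate groups, and BD lay on opposite sides of the number split in the 2 strains. Of the 40 entries called higher, 37 had a positive BD log2 ratio in CAST/EiJ (median 0.26) and 39 a negative one in C57BL/6J (median -0.59). Of the 49 called lower, 48 were negative in CAST/EiJ (median -0.28) and 49 positive in C57BL/6J (median 0.52). Over all 320 entries the medians were -0.02 in CAST/EiJ and 0.02 in C57BL/6J, and 187 had opposite signs. With the number split as a covariate, 22 of the 40, 32 of the 49 and 171 of all 320 had opposite signs, with medians of 0.11 in CAST/EiJ and -0.40 in C57BL/6J for the higher set, and of -0.04 in CAST/EiJ and 0.34 in C57BL/6J for the lower set; within sides, 21 of the 40 and 22 of the 49 had opposite signs. The BD and clean-air libraries of CAST/EiJ did not overlap for 5 of the 40 and 11 of the 49 (10.9% of all entries), and those of C57BL/6J for 16 of the 40 and 28 of the 49 (19.1% of all entries).

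**Figure D2:**
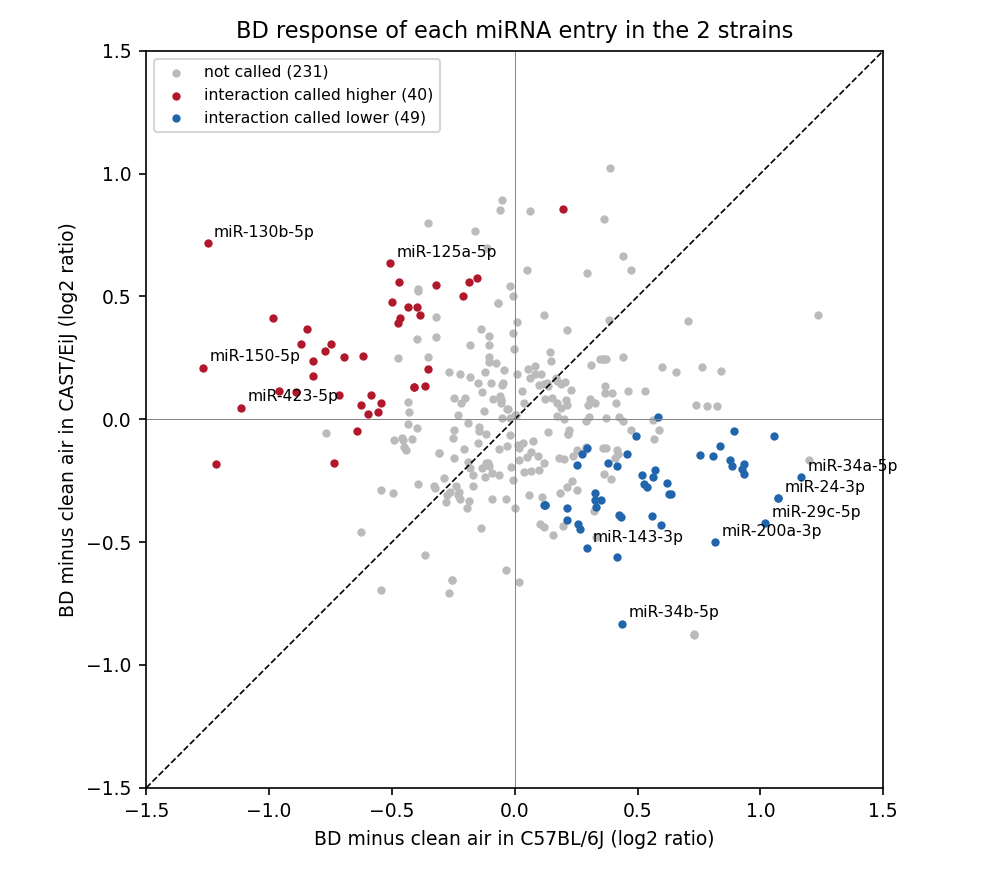
BD minus clean air log2 ratio of each of 320 miRNA entries in CAST/EiJ (y axis) and in C57BL/6J (x axis), with entries of a called interaction in red (40 higher) and blue (49 lower). Points above the dashed line of equal response have a positive interaction; most red points lie left of 0 on the x axis and most blue points right of 0.

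Of the leukocyte miRNAs, 8 were called higher, and 5 of these 8 also passed the test of BD in C57BL/6J, where they fell. All 4 tested entries of the pan-leukocyte and myeloid list (both arms of miR-142 and of miR-223) were called higher (27.8% of all entries were called in either direction), with a median interaction log2 ratio of 0.96 against -0.06 over all 320 entries. Of 12 lymphocyte entries, 4 were called higher (miR-150-5p, miR-155-5p and both arms of miR-342) and 1 lower (miR-181c-5p, at -0.61), with a median of 0.17. The 6 tested entries of the inflammation-induced list (miR-21, miR-132, miR-146 and miR-212 families) held no call, with a median of -0.03. In bulk lung, fewer cells of a type and less of an miRNA per cell cannot be told apart.

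miR-150-5p, which marks mature lymphocytes and represses Myb, was measured at 1738, 1786 and 1899 CPM (counts scaled to a library total of 1000000) in CAST/EiJ BD, and from 932 to 2104 with a median of 1585 CPM in CAST/EiJ clean air. In C57BL/6J it was measured at 1204, 1398, 2156 and 2296 CPM under BD, against 2864, 4176, 4522, 4640 and 5023 CPM in clean air. Every C57BL/6J BD library was below every clean-air library of that strain, while the CAST/EiJ BD values lay within the clean-air range. The BD log2 ratio was 0.21 in CAST/EiJ (edgeR adjusted p = 0.591) and -1.27 in C57BL/6J (edgeR adjusted p = 0.0013), an interaction of 1.48 ± 0.34 (SE, edgeR adjusted p = 0.00532). The lowest clean-air C57BL/6J value, 2864 CPM, belonged to replicate 1, the one library of that group with a higher number. The interaction was 0.52 with the number split as a covariate (edgeR adjusted p = 0.461) and 0.58 within sides.

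miR-142-3p, which is made in all blood-forming lineages, averaged 458 ± 30.3 CPM in CAST/EiJ BD (SD, n = 3) and 424 ± 77.8 CPM in CAST/EiJ clean air (n = 7). In C57BL/6J it averaged 488 ± 63.9 CPM under BD (SD, n = 4) and 903 ± 166 CPM in clean air (n = 5). Its interaction was 1.00 ± 0.22 (SE, edgeR adjusted p = 0.00429), and that of miR-142-5p 0.95 ± 0.23 (edgeR adjusted p = 0.00541). Both arms were lower in all 4 C57BL/6J BD libraries than in any clean-air library of that strain, and overlapped in CAST/EiJ. With the covariate the 2 arms were at 0.50 and 0.42, and neither was called.

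miR-223-3p, a miRNA of neutrophils and other myeloid cells, passed the test of BD in CAST/EiJ and not in C57BL/6J. It was measured at 215, 263 and 288 CPM in CAST/EiJ BD, against 156 to 205 CPM with a median of 167 in CAST/EiJ clean air, and the groups did not overlap. C57BL/6J lungs averaged 179 ± 29.1 CPM under BD (SD, n = 4) and 203 ± 28.2 CPM in clean air (n = 5). The BD log2 ratio was 0.56 in CAST/EiJ (edgeR adjusted p = 0.0282) and -0.19 in C57BL/6J (edgeR adjusted p = 0.32), with an interaction of 0.75 ± 0.19 (SE, edgeR adjusted p = 0.00845). The covariate left an interaction of 0.44 (edgeR adjusted p = 0.344). With it, BD in CAST/EiJ was called for 6 entries, 0 of them higher, so no rise of miR-223-3p was called there. Without the covariate, leaving out 1 CAST/EiJ BD library left 1 or 2 of the 320 entries called for BD in CAST/EiJ.

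The 2 arms of miR-342, which lies in an intron of Evl, were both called. The 5p arm was low: 13.3, 16.9 and 17.1 CPM in CAST/EiJ BD, and 11.3 to 24.5 with a median of 16.2 CPM in CAST/EiJ clean air. In C57BL/6J it was at 3.73 to 5.42 CPM in the 4 BD libraries, all below the 8.32 to 12.9 CPM of the 5 clean-air libraries. Its interaction of 1.03 ± 0.30 (SE, edgeR adjusted p = 0.016) grew to 1.59 with the covariate and was still called (edgeR adjusted p = 0.0386). The 3p arm, at 491 ± 21.1 CPM in CAST/EiJ BD (SD, n = 3) and 336 ± 71.6 CPM in CAST/EiJ clean air (n = 7), did not overlap between these groups and had an interaction of 0.87 ± 0.25 (SE, edgeR adjusted p = 0.0146) that was 0.10 with the covariate (edgeR adjusted p = 0.849).

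The messenger RNA of lymphocyte markers was read in the RNA-seq libraries of the same study, which the selection of the miRNA members did not use. In RNA-seq, CAST/EiJ BD libraries with numbers 11 and 12 lay on the higher side of the number split, with all C57BL/6J BD libraries. The split as a covariate is therefore not the same adjustment there as in small RNA. Summed over 10 B cell markers, the level was 47.4 to 117 CPM in CAST/EiJ BD (n = 5) and 35.9 to 149 CPM in CAST/EiJ clean air (n = 7). In C57BL/6J it was 82.3 to 216 CPM under BD (n = 6), below the 224 to 434 CPM of clean air (n = 5), where replicate 1 was lowest. The median interaction of the 10 genes was 1.37 (0.65 with the number split as a covariate) against -0.02 over all 17377 genes tested, yet 0 of the 10 passed edgeR's test, against 9.44% of all genes. Of 10 T cell markers 1 was called, Cd3e, a subunit of the T cell receptor complex, at 1.87 ± 0.49 (SE, edgeR adjusted p = 0.0265), and at 1.43 without a call with the covariate; the summed level was 32.5 to 53.6 CPM under BD, against 58.5 to 80.4 CPM in clean air, in C57BL/6J. The part of lymphocyte number in the miRNA results was not tested.

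**Figure D3:**
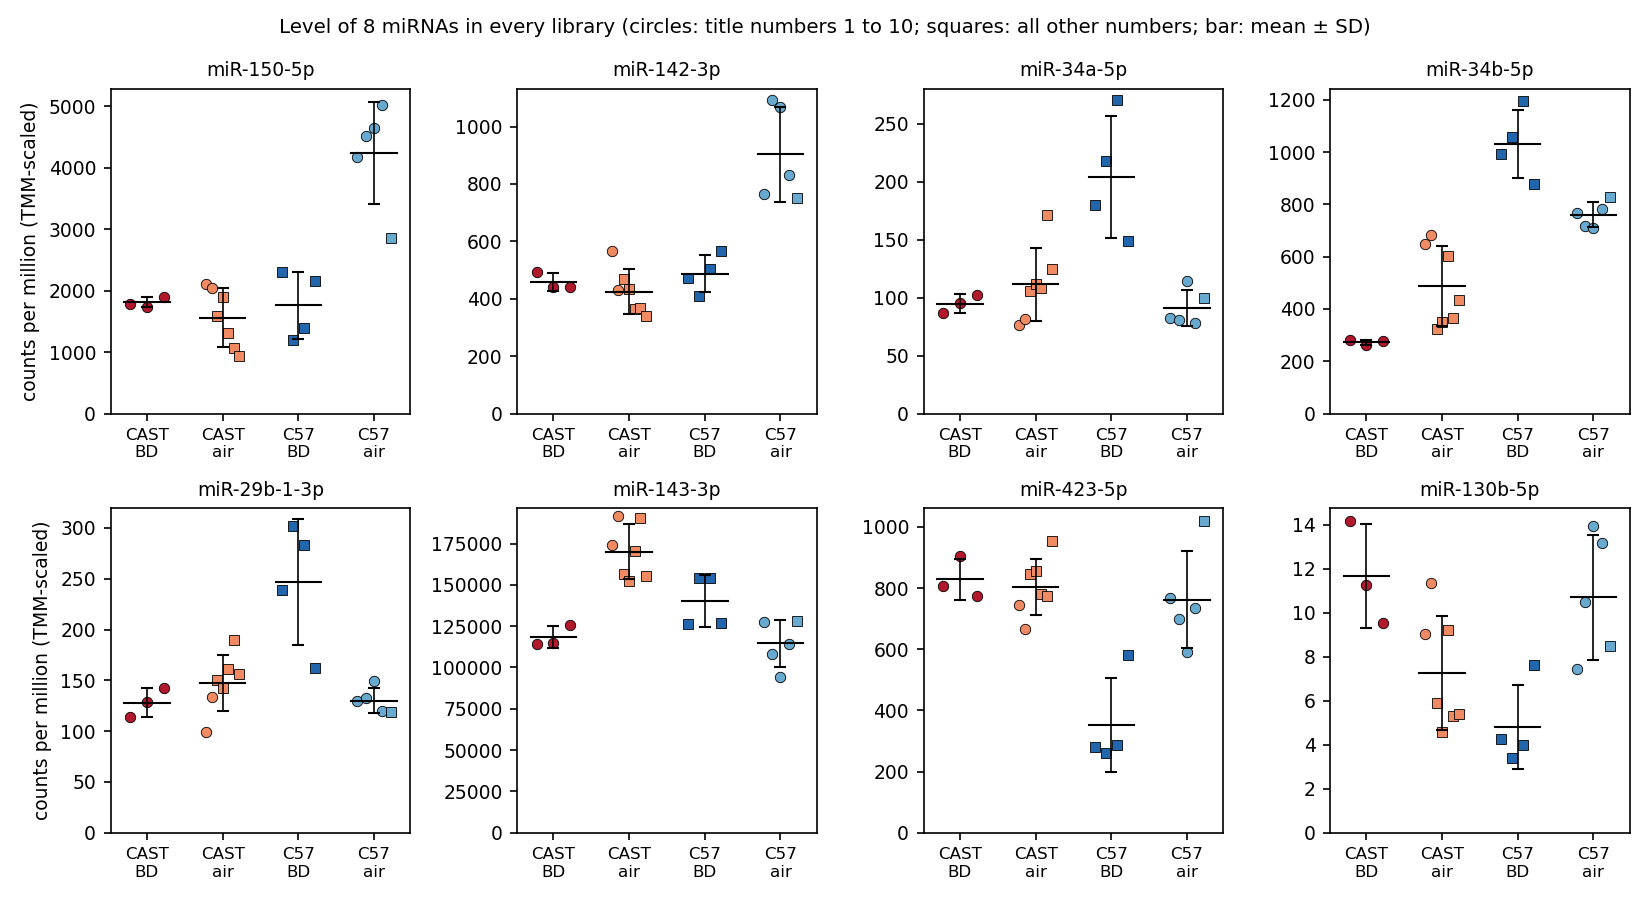
Level of 8 miRNAs in each of the 19 libraries in CPM on linear axes from 0, with CAST/EiJ left and C57BL/6J right, BD left of clean air; circles are title numbers 1 to 10, squares all other numbers, and bars the mean ± SD. For miR-150-5p and miR-142-3p the C57BL/6J BD libraries lie below those in clean air, and for miR-34a-5p and miR-29b-1-3p above them.

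The miR-34 and miR-449 family held the lowest median of the lists, -1.27 over 5 tested entries, of which 2 were called lower. miR-34a, a direct target of p53, was measured at 86.4, 95.0 and 102.5 CPM in CAST/EiJ BD, within the 76.2 to 171 CPM (median 108) of CAST/EiJ clean air. Among C57BL/6J libraries it was at 148, 179, 218 and 270 CPM under BD, all above the 78.3 to 115 CPM of the 5 clean-air libraries. The BD log2 ratio was -0.24 in CAST/EiJ (edgeR adjusted p = 0.496) and 1.17 in C57BL/6J (edgeR adjusted p = 0.000758), and the interaction was -1.40 ± 0.30 (SE, edgeR adjusted p = 0.00429). With the covariate it was -0.64 (edgeR adjusted p = 0.33), and within sides -0.68.

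miR-34b-5p, cut with miR-34c from 1 transcript of ciliated cells, was the one entry called in all 3 fits. It was at 263, 276 and 281 CPM in CAST/EiJ BD, below every clean-air library of that strain (324 to 684 CPM, median 436). Among C57BL/6J libraries it was at 879, 993, 1057 and 1195 CPM under BD, above every clean-air library (711 to 829 CPM). The log2 ratio was -0.83 in CAST/EiJ (edgeR adjusted p = 0.0287) and 0.44 in C57BL/6J (edgeR adjusted p = 0.0862), giving an interaction of -1.27 ± 0.28 (SE, edgeR adjusted p = 0.00429). It was -1.79 with the number split as a covariate (edgeR adjusted p = 0.00565) and -1.51 within sides. With library number 8 kept under its label it was -0.78 (edgeR adjusted p = 0.122), so this call rests on leaving that library out.

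The rest of the family was not called. miR-34b-3p had an interaction of -0.58 (edgeR adjusted p = 0.0897), miR-449a-5p of -1.36 (edgeR adjusted p = 0.0974) and miR-449c-5p of -0.81 (edgeR adjusted p = 0.228). miR-449c-5p ranged from 283 to 798 CPM in CAST/EiJ BD and from 245 to 516 CPM in CAST/EiJ clean air, with overlap. It ranged from 284 to 326 CPM in C57BL/6J BD and from 86.0 to 276 CPM in C57BL/6J clean air, where replicate 1 was highest. miR-34c could not enter the interaction: neither arm was listed in any of the 10 CAST/EiJ libraries, and since number 8 was not listed either, the table does not say whether it was absent there. In C57BL/6J, miR-34c-5p was at 9448 to 14710 counts per 1000000 of the library total under BD and at 10276 to 15670 in clean air, and the groups overlapped. The smallest listed value equalled 4.17 counts per 1000000 of the smallest CAST/EiJ total. Including both arms, 5 entries were listed in every C57BL/6J library and in no CAST/EiJ library, and 1 the other way. The cause of this listing was not tested. Ciliated cell messages held 0 calls of 10 in the interaction, against 9.44% of all genes, with a median of -0.40.

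miR-29 was the family with the largest share of calls among lists of 5 or more entries, 5 of 6 tested, all lower, with a median of -0.996. Of all 320 entries 15.3% were called lower, and the 6 miR-29 entries carry 5 mature names. miR-29b-3p (the entry of the miR-29b-1 locus) was at 114, 128 and 142 CPM in CAST/EiJ BD, and from 98.8 to 189 with a median of 151 CPM in CAST/EiJ clean air. Among C57BL/6J libraries it was at 162, 239, 283 and 302 CPM under BD, above the 119 to 149 CPM of clean air in every library. The interaction was -1.13 ± 0.25 (SE, edgeR adjusted p = 0.00429), and the entry of the second locus, which shares the same mature sequence and its reads, gave -1.12. miR-29c-3p was at -0.88 ± 0.20 (SE, edgeR adjusted p = 0.00429), the most abundant member, miR-29a-3p, at -0.41 ± 0.13 (SE, edgeR adjusted p = 0.0226), and miR-29c-5p, at under 20 CPM in every library, at -1.44 ± 0.32 (SE, edgeR adjusted p = 0.00429). The uncalled member, miR-29a-5p, was at 0.06. With the covariate the list median was -0.57 and none of the 6 was called.

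miR-143-3p, the smooth muscle miRNA, was the most abundant miRNA called and had the smallest p-value of the 320. It was at 114212, 114906 and 125930 CPM in CAST/EiJ BD, below every CAST/EiJ clean-air library (152210 to 191481 CPM, median 170645). C57BL/6J lungs averaged 140367 ± 15723 CPM under BD (SD, n = 4) and 114525 ± 14072 CPM in clean air (n = 5), with overlap. The log2 ratio was -0.52 in CAST/EiJ (edgeR adjusted p = 0.0122) and 0.29 in C57BL/6J (edgeR adjusted p = 0.0304), and the interaction of -0.82 ± 0.14 (SE, edgeR adjusted p = 0.00305) was -0.84 with the covariate and still called (edgeR adjusted p = 0.024). The other 3 entries of the smooth muscle cluster, miR-143-5p, miR-145-5p and miR-145-3p, ranged from -0.56 to 0.41 without a call, and miR-143-5p was called with the covariate, at -1.13 (edgeR adjusted p = 0.0255). In RNA-seq, 2 of 10 smooth muscle genes were called lower, against 664 of all 17377 genes tested. They were Myh11, smooth muscle myosin, at -0.79 ± 0.22 (SE, edgeR adjusted p = 0.0333) and Tagln, an actin-binding protein, at -0.72 ± 0.19 (edgeR adjusted p = 0.0285). With the covariate they were at -0.88 and -0.60, and neither was called. The summed level of all 10 smooth muscle genes was 1040 to 1980 CPM in CAST/EiJ BD and 1410 to 3090 CPM in CAST/EiJ clean air. The part of smooth muscle content in the miR-143-3p result was not tested.

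miR-423-5p carried the largest positive ratio that remained with the covariate. It was at 775, 807 and 905 CPM in CAST/EiJ BD and at 666 to 952 CPM with a median of 782 in CAST/EiJ clean air. C57BL/6J lungs had it at 260, 281, 287 and 582 CPM under BD, below all 5 clean-air libraries (591 to 1020 CPM); the value of 582 CPM was that of replicate 4, number 18. The interaction was 1.16 ± 0.28 (SE, edgeR adjusted p = 0.00556), 1.70 with the covariate (edgeR adjusted p = 0.0142) and 1.85 within sides. Its 3p arm moved the same way, at 0.69 ± 0.18 (SE, edgeR adjusted p = 0.0091) and 0.76 with the covariate (edgeR adjusted p = 0.0857). The calls shared by the fits with and without the covariate were 4: miR-34b-5p, miR-143-3p, miR-423-5p and miR-342-5p.

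Among epithelial miRNAs, the miR-200 family, which holds down Zeb1 and Zeb2, had 3 of 8 entries called lower and none higher, with a median of -0.38. Of all 320 entries 15.3% were called lower. miR-200a-3p averaged 1824 ± 268 CPM in CAST/EiJ BD (SD, n = 3) and 2582 ± 905 CPM in CAST/EiJ clean air (n = 7). C57BL/6J lungs averaged 2700 ± 752 CPM under BD (SD, n = 4) and 1535 ± 210 CPM in clean air (n = 5). Its interaction was -1.32 ± 0.33 (SE, edgeR adjusted p = 0.00748), and -0.39 with the covariate (edgeR adjusted p = 0.611). miR-200b-3p, cut from the same chromosome 4 cluster, stood on the other side of 0 from the groups alone, at 0.74 (edgeR adjusted p = 0.0929). With the covariate miR-200b-3p was at -0.59, on the same side as miR-200a-3p.

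miR-24-3p, which is encoded at 2 loci that shared their reads, averaged 1124 ± 143 CPM in CAST/EiJ BD (SD, n = 3), 1405 ± 703 CPM in CAST/EiJ clean air (n = 7), 2298 ± 649 CPM in C57BL/6J BD (n = 4) and 1093 ± 118 CPM in C57BL/6J clean air (n = 5). The interaction was -1.39 ± 0.43 (SE, edgeR adjusted p = 0.023) and lost its call when any 1 of 3 libraries was left out. With the covariate it was -0.32 (edgeR adjusted p = 0.797). In the list of miR-23, miR-24 and miR-27 clusters, 1 of 10 entries was called higher (miR-27b-5p, 0.58) and 2 lower, both of them miR-24-3p.

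Erythroid miRNAs had 2 of 5 entries called lower, against 15.3% of all entries. They were miR-144-3p at -0.95 ± 0.24 (SE, edgeR adjusted p = 0.00708) and miR-451 at -0.94 ± 0.28 (SE, edgeR adjusted p = 0.0169), which are cut from 1 transcript of red cell precursors. miR-451 averaged 4650 ± 290 CPM in CAST/EiJ BD (SD, n = 3) and 4802 ± 734 CPM in CAST/EiJ clean air (n = 7), and ranged from 4258 to 11264 CPM in C57BL/6J BD, against 3504 to 4783 CPM in C57BL/6J clean air. Both were without a call with the covariate, at -0.49 and -0.90. Of 8 erythroid messages tested, 4 were called lower, against 664 of all 17377 genes tested. Among the 4 were Hbb-b1 and Hbb-b2, which encode beta globin and are near-identical copies, and Alas2, the first enzyme of heme synthesis in red cells. These 3 were at -0.92, -1.03 and -0.77, with edgeR adjusted p-values of 0.0328, 0.025 and 0.0304. With the covariate they were at -0.35, -0.43 and -0.36, and none was called. The summed level was 3410 to 8520 CPM in CAST/EiJ BD and 6590 to 14200 CPM in CAST/EiJ clean air, and 7500 to 9700 CPM in C57BL/6J BD and 5320 to 7930 CPM in C57BL/6J clean air. The part of blood content was not tested.

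The growth-promoting miR-17 to 92 cluster and its paralogs had 4 of 17 entries called higher, 4 lower and a median of -0.12. Of all 320 entries 12.5% were called higher and 15.3% lower. miR-19b-3p was at 320, 334 and 385 CPM in CAST/EiJ BD and 367 to 474 CPM (median 435) in CAST/EiJ clean air, and at 406, 619, 628 and 633 CPM in C57BL/6J BD against 329 to 428 CPM in C57BL/6J clean air, an interaction of -0.93 ± 0.18 (SE, edgeR adjusted p = 0.00305). miR-19a-3p, of the same seed, was at -0.74, and miR-106b-5p, in an intron of Mcm7, at -0.78 ± 0.18 (SE, edgeR adjusted p = 0.00532). miR-92a-3p went the other way, at 0.81 ± 0.19 (SE, edgeR adjusted p = 0.00541), with 12127 ± 509 CPM in CAST/EiJ BD (SD, n = 3), 11337 ± 1781 CPM in CAST/EiJ clean air (n = 7), 10349 ± 1968 CPM in C57BL/6J BD (n = 4) and 16976 ± 1874 CPM in C57BL/6J clean air (n = 5). miR-18a-3p and miR-93-3p were called higher at 1.21 and 0.71, while miR-18a-5p was at -0.73 without a call (edgeR adjusted p = 0.103). The covariate left none of the 17 called.

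**Figure D4:**
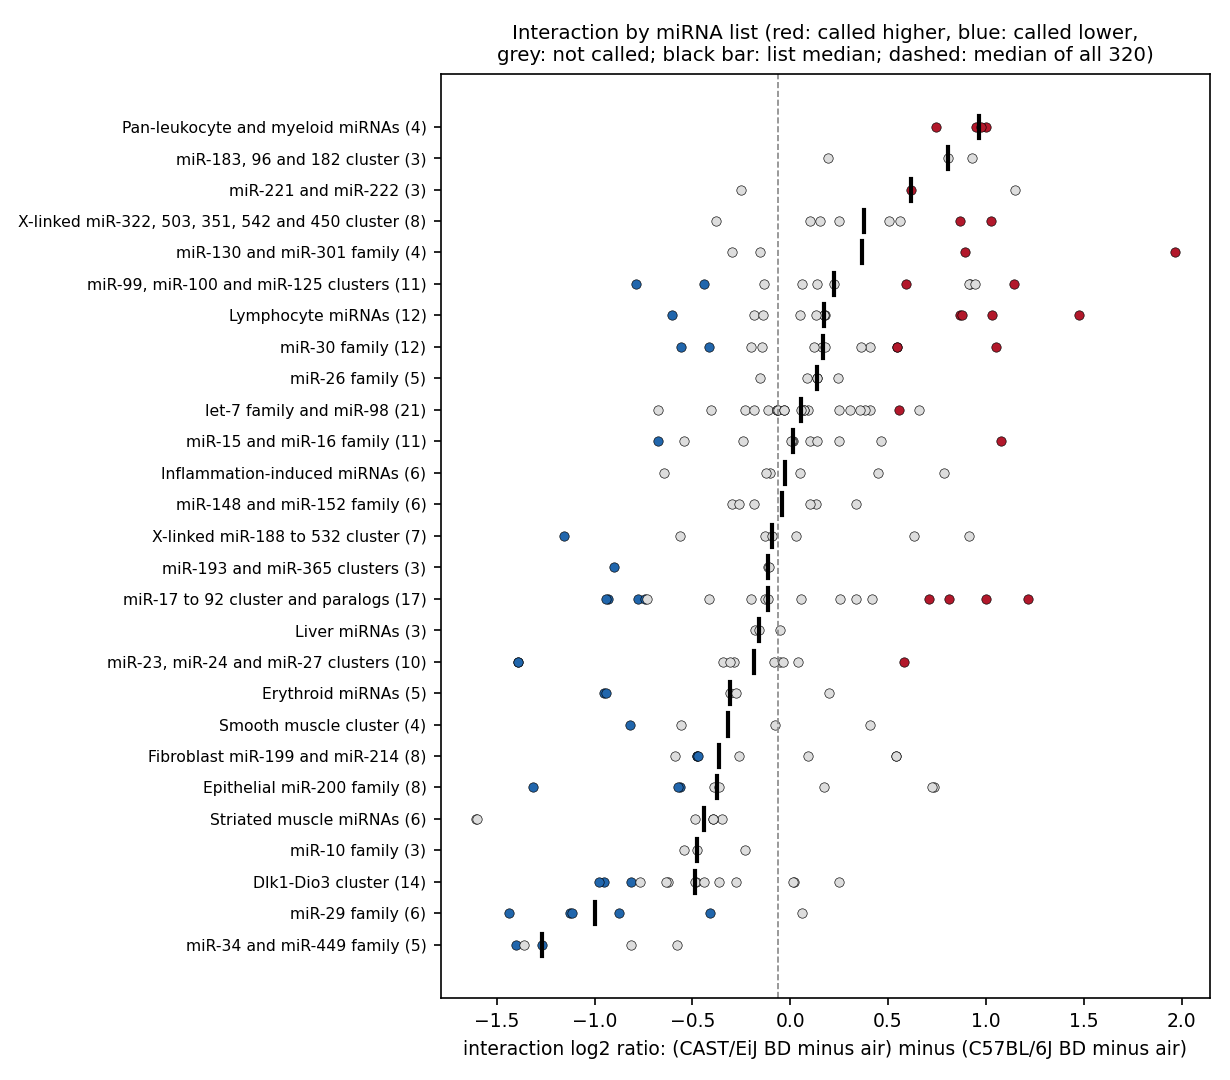
Interaction log2 ratio of each tested entry (points) in the 27 miRNA lists with 3 or more tested entries, with the number tested in brackets, the list median as a black bar and the median of all 320 entries (-0.06) as a dashed line. The pan-leukocyte and myeloid list is highest, at 0.96, and the miR-34 and miR-449 family lowest, at -1.27.

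The highest ratio of the 320 was that of miR-130b-5p, a miRNA of low level whose family had 2 of 4 entries called. It was at 9.53, 11.3 and 14.2 CPM in CAST/EiJ BD, 4.58 to 11.3 CPM (median 5.92) in CAST/EiJ clean air, 3.39, 3.99, 4.26 and 7.60 CPM in C57BL/6J BD, and 7.44 to 13.9 CPM in C57BL/6J clean air. Its interaction was 1.97 ± 0.39 (SE, edgeR adjusted p = 0.00305), and 0.98 with the covariate (edgeR adjusted p = 0.269); the 3p arm was called at 0.89. miR-128-3p was at 1.18 ± 0.28 (SE, edgeR adjusted p = 0.00532) and 0.22 with the covariate. miR-3096b-5p was at 1.40 and miR-3096-5p at 1.06, and at 0.95 and 0.85 with the covariate, without a call.

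In the miR-99, miR-100 and miR-125 clusters, 2 of 11 entries were called higher and 2 lower. miR-125a-5p was at 1.14 ± 0.36 (SE, edgeR adjusted p = 0.0256), with 32060, 34218 and 42500 CPM in CAST/EiJ BD and 13352 to 40028 CPM (median 20346) in CAST/EiJ clean air, and its sign turned with the covariate, to -0.17. miR-125b-1-3p was called at 0.59, miR-125b-2-3p at -0.44 and miR-99a-3p at -0.79, and none of the 11 was called with the covariate. The X-linked cluster of miR-322, miR-503 and miR-351, which restrains the cell cycle, had 2 of 8 called higher, miR-351-5p at 1.03 ± 0.23 (SE, edgeR adjusted p = 0.00429) and miR-503-3p at 0.87. miR-351-5p was above all clean-air libraries in CAST/EiJ BD (2222 to 2627 CPM against 1207 to 2117 CPM). With the covariate it was at 0.74 (edgeR adjusted p = 0.146) and miR-503-3p at 0.94 (edgeR adjusted p = 0.154).

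In the miR-15 and miR-16 family 1 of 11 entries was called higher, miR-497-5p at 1.08 ± 0.26 (SE, edgeR adjusted p = 0.00556) and at 0.88 with the covariate (edgeR adjusted p = 0.175), and 1 lower, miR-15a-5p at -0.68, whose sign turned with the covariate, to 0.13. The miR-30 family had 3 of 12 called higher (miR-30c-1-3p at 1.05, miR-30c-5p at 0.54, counted at 2 loci) and 2 lower (miR-30a-5p at -0.56, miR-30e-5p at -0.42). In the let-7 family and miR-98, 1 of 21 was called, let-7d-3p at 0.56 and -0.017 with the covariate, and in miR-221 and miR-222 1 of 3, miR-222-3p at 0.62. None of the entries of these 4 families was called with the covariate.

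The imprinted Dlk1-Dio3 cluster of chromosome 12, expressed from the maternal copy, had 3 of 14 tested entries called lower (15.3% of all entries were), none higher, and a median of -0.49. They were miR-381-3p at -0.98 ± 0.30 (SE, edgeR adjusted p = 0.0203), miR-136-5p at -0.95 ± 0.26 (SE, edgeR adjusted p = 0.0104) and miR-300-3p at -0.81 ± 0.24 (SE, edgeR adjusted p = 0.0169). For all 3 the CAST/EiJ BD libraries were below those in clean air; miR-381-3p was at 46.0, 48.1 and 50.8 CPM, against 62.6 to 76.4 CPM. With the covariate the 3 were at -0.47, -0.23 and -0.62 without a call. In fibroblast miR-199 and miR-214, 3 of 8 entries were called lower, all miR-199-3p at -0.47, and in the X-linked miR-188 to miR-532 cluster 1 of 7, miR-500-3p at -1.16 ± 0.22 (SE, edgeR adjusted p = 0.00305). With the covariate the 3 miR-199-3p entries were at -0.15 to -0.13 and miR-500-3p at -0.82, and none of them was called.

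Of the remaining lowest ratios, miR-582-5p was at -1.12, miR-22-5p at -1.07, miR-33-5p, of an intron of Srebf2, at -1.04 and miR-455-5p at -1.02, with edgeR adjusted p-values of 0.0054, 0.00429, 0.00429 and 0.00305. All 4 averaged more in C57BL/6J BD than in any of the other 3 groups; miR-582-5p, for example, was at 30.7 to 63.9 CPM there, against 21.5 to 27.5 CPM in C57BL/6J clean air. With the covariate they were at -0.91, -0.63, -0.70 and -0.91, and none was called. miR-103-3p, in introns of the Pank genes, was at 1231, 1256 and 1264 CPM in CAST/EiJ BD, below the 1363 to 1990 CPM of clean air, with an interaction of -0.71 ± 0.14 (SE, edgeR adjusted p = 0.00305) that was -0.36 with the covariate (edgeR adjusted p = 0.246). The hypoxia miRNA miR-210-3p was at -0.69 and miR-193b-3p at -0.90, and neither was called with the covariate, at -0.52 and -0.95. Lists with no call were those of striated muscle (6 tested), miR-10 (3), miR-148 and miR-152 (6), the miR-183 cluster (3), miR-26 (5), endothelial miR-126 (2), squamous epithelium (2), liver (3) and neuroendocrine miRNAs (2).

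The number split as a covariate also called 5 entries that the groups alone did not. miR-409-5p was at -2.09 (edgeR adjusted p = 0.0142) and 0.25 from the groups alone, miR-490-3p at -1.48 and -0.68, miR-143-5p at -1.13 and -0.08, miR-199b-5p at -1.01 and -0.26, and miR-214-3p at -0.98 and 0.09. miR-409-5p ranged from 18.4 to 22.5 CPM in CAST/EiJ BD, within the 6.99 to 39.6 CPM of the 7 clean-air CAST/EiJ libraries. These entries were named because that fit called them, after their values were seen. Without clean-air CAST/EiJ replicate 7 that fit called 0 entries (46 at an unadjusted p under 0.05; the other tools were not run without it), and without C57BL/6J BD replicate 4 it called 61.

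Many miRNAs lie in introns of genes, so the RNA-seq libraries gave a second reading for them. Of 40 host genes tested, 2 were called in the mRNA interaction, which called 1641 of 17377 genes (9.44%). R3hdm1, host of miR-128-1, averaged 42.2 ± 3.63 CPM in CAST/EiJ BD (SD, n = 5) and 32.2 ± 8.21 CPM in CAST/EiJ clean air (n = 7). In C57BL/6J it averaged 42.9 ± 1.77 CPM under BD (n = 6) and 48.8 ± 5.46 CPM in clean air (n = 5). Its interaction was 0.58 ± 0.18 (SE, edgeR adjusted p = 0.0418), with the sign of miR-128-3p, and 0.13 with the number split as a covariate. Arpp21, also a host of miR-128, was at -0.30 without a call. Ctdsp1, host of miR-26b, was at 0.47 (edgeR adjusted p = 0.0451), while miR-26b-5p was at 0.08; it is named because it was one of 2. Among hosts of named miRNAs that were not called, Evl was at 0.38 (edgeR adjusted p = 0.087), Mcm7 at -0.24 (edgeR adjusted p = 0.071), Pank3 at -0.23, Srebf2 at 0.42, Clcn5 at 0.20 and the host of miR-29b-2 and miR-29c, A330023F24Rik, at 0.45. Srebf2, Clcn5 and A330023F24Rik had the opposite sign to miR-33-5p, miR-500-3p and the called miR-29 entries. With the number split as a covariate, which in RNA-seq divided the CAST/EiJ BD libraries, 2 of 17729 genes were called (0.0113%), no host among them. Leaving out 1 library moved the count of 1641 from the groups alone to between 372 (without clean-air C57BL/6J replicate 3) and 3392 (without clean-air C57BL/6J replicate 1).

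The called miRNAs were then sorted by hairpin, seed and neighbouring hairpin. The counts describe the same interaction calls and are not separate support for them. Of all 320 entries 27.8% were called, and a hairpin, seed or group with 2 or more entries can be counted through any of them. Whether the counts exceed that share was not tested. Of 94 hairpins with both arms tested, 43 had a called arm and 9 had both arms called, in each case in the same direction. These were miR-130b, miR-142, miR-223, miR-30c-1, miR-342 and miR-423 higher, and miR-200a, miR-29c and miR-582 lower. In 17 of the 43 the arms had opposite signs, as in miR-18a. With the covariate both arms of each of the 9 hairpins still shared their sign, and neither arm was called except miR-342-5p and miR-423-5p. Of 33 seeds shared by 2 or more tested names, 20 had a call. Of the 8 with 2 or more called names, 6 had them in 1 direction and 2 in both (the seeds of miR-15 and of miR-30). The 6 include the seed of miR-199a-3p and miR-199b-3p, which have the same sequence and the same values, so their shared direction was fixed in advance. Of 32 groups of hairpins that neighbour each other within 10000 bases in GRCm38.p6, 22 had a call. Of the 9 with 2 or more called entries, 6 had them in 1 direction and 3 in both: miR-27b with miR-24-1, miR-30c-1 with miR-30e, and miR-93 with miR-106b. Neighbouring hairpins and entries of 1 mature miRNA share reads or transcripts, so these counts, all of calls from the groups alone, are not of independent entries.

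The base composition of the called entries was also computed. The median share of G and C was 50% in the 32 sequences of entries called higher, 42.1% in the 47 of those called lower and 45.8% in the 260 of all tested. Among 47 names under 40% G and C, 4 were called higher and 12 lower, with a median ratio of -0.31; among 27 names of at least 60%, 4 were called higher and 2 lower, with a median of 0.22. Across 241 names, which share their libraries and are not replicates, Pearson's r with the share of G and C was 0.15 for the interaction and 0.06 for the interaction with the number split as a covariate. The part of base composition in the result was not tested.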

How the data were processed

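Small RNA and RNA-seq libraries were aligned to mm9 with Bowtie and GSNAP, per the submitters' processing notes; versions and counting rules are not given in the sources used here. The deposited small RNA table holds estimated counts by the authors, partly fractional (64.1% of listed values whole within 1e-06) and with no value under 10.5 listed; values were rounded to whole numbers. The deposited RNA-seq table holds read counts per gene. Libraries were grouped by strain and exposure in GEO's labels. edgeR 4.0.16 (R 4.3.3; TMM, robust quasi-likelihood fit, 1 mean per group) tested the interaction over 320 miRNA entries and over the genes passing filterByExpr, with Benjamini-Hochberg adjustment at 0.05. CPM are TMM-scaled; ± is the SD of CPM or the SE of a log2 ratio. Precision is limited by the totals of 2066588 to 8474182 counts and by 3 libraries in the smallest group.

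The members, lists and host genes were chosen with earlier results of these data known, and a list's count is not independent evidence. Named miRNAs had a called interaction and averaged 5 CPM or more in 1 or more groups: the 12 highest, the 12 lowest, the 6 smallest remaining p-values and up to 2 per direction of each list. No 2 of the libraries agreed within sampling noise (chi-square per degree of freedom of at least 20.7 over 190 pairs). Alternatives were median-of-ratios factors, DESeq2 1.42.0, limma-voom 3.58.1, filters, summed loci, thinning to 2033220 counts, fits by title number, and each library left out. Scripts were tested on simulated data. The 160 entries not listed in every library were left out, and 0 columns lacked a sample. One called gene of the erythroid list is not reported here by name.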

Additional observations from a re-analysis of the deposited data

Results flagged for a closer look

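From the groups alone, edgeR's interaction test called 89 of 320 entries, and 55 of these are named. With the number split as a covariate 85 of the 89 were not called, and the ratios that follow are from the groups alone. The log2 interaction ratio was 1.97 for miR-130b-5p, 1.48 for miR-150-5p, 1.40 for miR-3096b-5p, 1.21 for miR-18a-3p, 1.18 for miR-128-1-3p, 1.16 for miR-423-5p, 1.14 for miR-125a-5p and 1.08 for miR-497-5p. Further positive ratios were 1.06 for miR-3096-5p, 1.05 for miR-30c-1-3p, 1.03 for miR-342-5p, 1.03 for miR-351-5p, 1.00 for miR-142-3p, 0.95 for miR-142-5p, 0.89 for miR-130b-3p and 0.87 for miR-342-3p. The smallest positive ones were 0.87 for miR-503-3p, 0.81 for miR-92a-1-3p, 0.62 for miR-222-3p, 0.59 for miR-125b-1-3p, 0.58 for miR-27b-5p, 0.56 for let-7d-3p and 0.54 for miR-30c-1-5p. Negative ratios were -1.44 for miR-29c-5p, -1.40 for miR-34a-5p, -1.39 for miR-24-1-3p, -1.32 for miR-200a-3p, -1.27 for miR-34b-5p, -1.16 for miR-500-3p, -1.13 for miR-29b-1-3p and -1.12 for miR-582-5p. Next came -1.07 for miR-22-5p, -1.04 for miR-33-5p, -1.02 for miR-455-5p, -0.98 for miR-381-3p, -0.95 for miR-144-3p, -0.95 for miR-136-5p, -0.94 for miR-451 and -0.93 for miR-19b-2-3p. Then followed -0.90 for miR-193b-3p, -0.88 for miR-29c-3p, -0.82 for miR-143-3p, -0.81 for miR-300-3p, -0.79 for miR-99a-3p, -0.78 for miR-106b-5p, -0.71 for miR-103-1-3p and -0.69 for miR-210-3p. The smallest of them were -0.68 for miR-15a-5p, -0.61 for miR-181c-5p, -0.56 for miR-200c-3p, -0.56 for miR-30a-5p, -0.47 for miR-199b-3p, -0.47 for miR-199a-1-3p, -0.44 for miR-125b-2-3p and -0.42 for miR-30e-5p.

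In 183 groups of 4 to 7 libraries, 11 values lay far from the rest of their group, where 9.2 would be expected at 1 in 20. In C57BL/6J BD, replicate 4 had a total of 3146118 counts, far under the other 3, and in the same library miR-19b-3p (406 CPM) was lowest, while miR-423-5p (582 CPM), miR-222-3p (1007 CPM) and miR-27b-5p (66.3 CPM) were highest. Replicate 3 of that group stood apart in miR-181c-5p, lowest at 2953 CPM, and in miR-200a-3p, highest at 3818 CPM. In CAST/EiJ clean air, replicate 4 was highest in miR-200a-3p (4411 CPM) and in miR-24-3p (2885 CPM). In C57BL/6J clean air, miR-210-3p was lowest in replicate 3 (62.1 CPM) and miR-15a-5p highest in replicate 1 (879 CPM). The part of these libraries in the interaction was not tested beyond leaving each out.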

How the results depend on the processing

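The share of entries called in the interaction was 27.8% (89 entries), and 21.8% to 31.6% with library number 8 kept, median-of-ratios factors, DESeq2, limma-voom, a minimum of 20 CPM, unlisted values as 0, summed loci or thinned counts. It was 21.2% with numbers over 100 as a covariate, 3.75% (12 entries) without numbers over 100, 2.81% (9) with the number split as a covariate and 0.312% (1; 52 at an unadjusted p under 0.05) within sides. Leaving out each library gave 18.1% (58 entries, without CAST/EiJ BD replicate 2) to 32.8%. For BD in CAST/EiJ, 2.81% (9 entries) became 5.62% (18) in DESeq2, 5.09% (14) at 20 CPM or more, and 0.312% (1, without CAST/EiJ BD replicate 4) to 7.81% (25, without clean-air replicate 7). Leaving out either other CAST/EiJ BD library left 2 entries. With the number split as a covariate it was 1.88% (6 entries), 0 higher and 6 lower, where the groups alone gave 4 higher and 5 lower. BD in C57BL/6J was called for 71 entries (22.2%) in that fit. For BD in C57BL/6J, 31.6% became 0% within sides by edgeR (72 entries at an unadjusted p under 0.05; DESeq2 and limma-voom were not run within sides) and 21.2% to 41.2% with a library left out. With the number split, 2.81% (9 entries) became 5.31% (17) in DESeq2, and 0% (without CAST/EiJ clean-air replicate 7) to 19.1% (61, without C57BL/6J BD replicate 4) with a library left out; 3 entries were left without CAST/EiJ clean-air replicate 6 or CAST/EiJ BD replicate 4, and 18 without CAST/EiJ clean-air replicate 4. In mRNA, 9.44% (1641 genes) became 4.4% (1041) without a filter, 0.474% (84) with numbers over 100 as a covariate, 0.0113% (2) with the number split, and 2.12% (372) to 19.4% (3392) with a library left out.

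The sign turned for 5 named miRNAs with the number split and for others elsewhere. With the split and within sides, miR-15a-5p was at 0.13 and 0.14, miR-125a-5p at -0.17 and -0.070, miR-409-5p at -2.09 and -1.60, and miR-214-3p at -0.98 and -0.87; let-7d-3p was at -0.017 with the split. Without numbers over 100, or with them as a covariate, miR-409-5p was at -0.63 and -0.49, and miR-214-3p at -0.26 in both. miR-214-3p ran from -0.020 to 0.23 with a library left out. miR-143-5p was at 0.018 in limma-voom, 0.046 at 20 CPM or more, and -0.19 to 0.10 with a library left out. The cause of these shifts was not tested. Of the 60 named ratios, 48 kept their sign and lost their call with the split, 4 kept both, and 6 lost their call with number 8 kept. No paired analysis was possible because the title numbers are not shared between groups within the assay.

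Depth limits the rare miRNAs: a value was listed only from 10.5 counts, and 160 entries missing in 1 or more libraries were not tested. The smallest group had 3 libraries, and C57BL/6J clean air had 1 library on the side of its BD libraries.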

Other observations

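Entries that were not listed in every library had no test. Of the 160, 4 were listed in all C57BL/6J BD libraries and in no C57BL/6J clean-air library (miR-411-3p, miR-369-5p, miR-501-5p and miR-296-5p), where 3 of the 4 BD libraries had the largest totals of the 19. Another 3 (miR-127-5p, miR-16-1-3p and miR-1947-5p) were listed in all CAST/EiJ clean-air libraries and in none of the 3 CAST/EiJ BD libraries. These 7 were singled out after their values were seen.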
